A study of Mus musculus with 2 samples.

Results

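Genes for glycolysis and for the response to low oxygen were examined in RNA-seq of teratomas from E14 and from E14-Sox2TA/WT cells. The 36 genes were chosen by gene symbol, as enzymes, transporters and hypoxia response genes, and all 36 were found among the 45777 genes of the deposited table. Of these, 24 belong to glycolysis and its transporters, and 12 belong to the HIF system and its other targets.

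E14 is a wild-type mouse embryonic stem cell (ESC) line, and the mutant line, E14-Sox2TA/WT (labelled Sox2 T258A), carries the T258A change on 1 allele of Sox2, introduced with CRISPR/Cas9 and isolated as a selected clone. The study asked how this change, which removes a site of O-GlcNAc modification from Sox2, affects the lineages that ESCs form in vivo. Cells of either line were inoculated under the skin of BALB/c-nu mice, immunodeficient hosts that keep their macrophages, neutrophils, vessels and red cells, and teratomas were taken 14 days later. Polyadenylated RNA was sequenced from 1 library per group, called the E14 and mutant teratoma below, and whether a library held 1 tumour or several was not stated. Teratoma is given as the tissue in the labels, although their protocol speaks of RNA from the ESC line. Host and tumour cells are both mouse cells and were not separated. With 1 library per group, no difference given here has a replicate check, and no p-value was computed.

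Glycolysis splits glucose into pyruvate in the cytosol, and lactate dehydrogenase then turns pyruvate into lactate, which monocarboxylate transporters carry out of the cell. Most steps are served by several isozymes encoded by separate genes, which different tissues use in different proportions. Hypoxia-inducible factor (HIF) is a dimer whose alpha subunit is hydroxylated by oxygen-dependent prolyl hydroxylases and then destroyed through the von Hippel-Lindau protein. When oxygen is low the subunit persists and HIF binds the core motif ACGTG near genes for glucose transporters, glycolytic enzymes, blood vessel growth and mitophagy.

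The promoters of the members were searched for this motif in RefSeq sequence of GRCm38, the genome build of the files (mm10). Windows ran from 250 bases before to 50 bases after an annotated start, and 32 of the 36 members had at least 1 window. Slc2a3, Bnip3l, Epas1 and Ndrg1 had none. ACGTG was found on either strand in 22 of the 32 members, or 68.8%. Among all genes of the promoter table that reached a TPM of 10 in either library, 2596 of 8718, or 29.8%, held it. A gene was counted if any of its windows held the motif. By window, it was found in 25 of 46 windows of the members, or 54.35%. Of all windows at any level of expression, 6447 of 32851, or 19.6%, held it. Of the 8 members that were more than 2-fold lower in the mutant teratoma, 6 held the motif, and of the 21 members with a window and a TPM of at least 10 that differed by less than 2-fold, 14 held it. A match is a string of letters and was not measured as a bound site. The following stretches lie upstream of the annotated start of their gene, and are shown because they carry the same motif at genes that differed in opposite ways. Slc16a1 was the member with the highest fold in the mutant teratoma among those with a TPM of at least 10, Egln1 was among the members with the largest decreases, and Slc2a1, Pgk1, Pgam1 and Bnip3 differed by less than 1.5-fold. Capitals mark ACGTG or its reverse complement CACGT, and CACGTG is an overlap of both.
Slc16a1, chr3:104638444-104638489, plus strand: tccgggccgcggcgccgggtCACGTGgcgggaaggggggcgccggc
Egln1, chr8:124949298-124949342, minus strand: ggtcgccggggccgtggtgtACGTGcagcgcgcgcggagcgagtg
Slc2a1, chr4:119108689-119108733, plus strand: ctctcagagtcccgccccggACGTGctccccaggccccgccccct
Pgk1, chrX:106186930-106186993, plus strand: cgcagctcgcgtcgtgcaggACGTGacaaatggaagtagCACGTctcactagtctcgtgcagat
Pgam1, chr19:41911737-41911781, plus strand: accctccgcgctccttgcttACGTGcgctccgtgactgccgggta
Bnip3, chr7:138909589-138909634, minus strand: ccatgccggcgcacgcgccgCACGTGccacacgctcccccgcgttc

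The E14 teratoma gave 50529171 reads on genes and the mutant teratoma 49030281. Levels are given as TPM, the deposited values that correct read counts for transcript length and set the same sum in each library. Of the summed TPM, mitochondrial genes took 5.17% and 9.70% respectively. The scaling shifted all genes: for the 11578 genes that reached a TPM of 10 in either library, the median log2 ratio (pseudocount 1) was -0.18 from TPM but 0.01 from FPKM. The TPM of the edited gene, Sox2, was 246 and 130, and its alleles were not separated. The intervals given (95%, Clopper-Pearson, from the reads) cover counting error only, and so compare libraries rather than conditions.

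The thresholds of the study, more than 2-fold in genes that reach a TPM of 10 in either library, were applied here to the ratio of the deposited TPM, since the methods do not name the values behind the fold change. Of the 36 members, 34 could be called in this way. Slc2a3, Slc16a1 and Ndrg1 were higher in the mutant teratoma, which is 8.82% of the members against 10.8% of all genes. Hk1, Pfkm, Aldoc, Pfkfb3, Pfkfb4, Eno2, Egln1 and Vegfa were lower, which is 23.5% of the members against 18.7% of all genes. The other 23 members differed by less than 2-fold. These shares are near those of the whole table. With the ratio of FPKM, 3 members were higher and 6 lower, since Pfkfb4 and Vegfa no longer passed, beside 13.7% and 14.3% of all genes. The member nearest to the threshold inside it was Pfkfb4, at a ratio of 0.483, and the nearest outside it was Gpi1, at 0.507. The interval lay wholly above 2 for 3 of the 34 members and wholly below 0.5 for 7. It spanned 0.5 for Pfkfb4 and also for Gpi1 (0.4975 to 0.5161), which was not called. The median log2 ratio of all 36 members was -0.21, and it was also -0.21 over the 34 that reached a TPM of 10, near the -0.18 of all genes at that level. Over the 18558 genes that reached a TPM of 1 in either library it was -0.06 (pseudocount 1). The members ran from 6.05-fold lower, for Aldoc, to 3.62-fold higher, for Slc16a1.

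**Figure D1:**
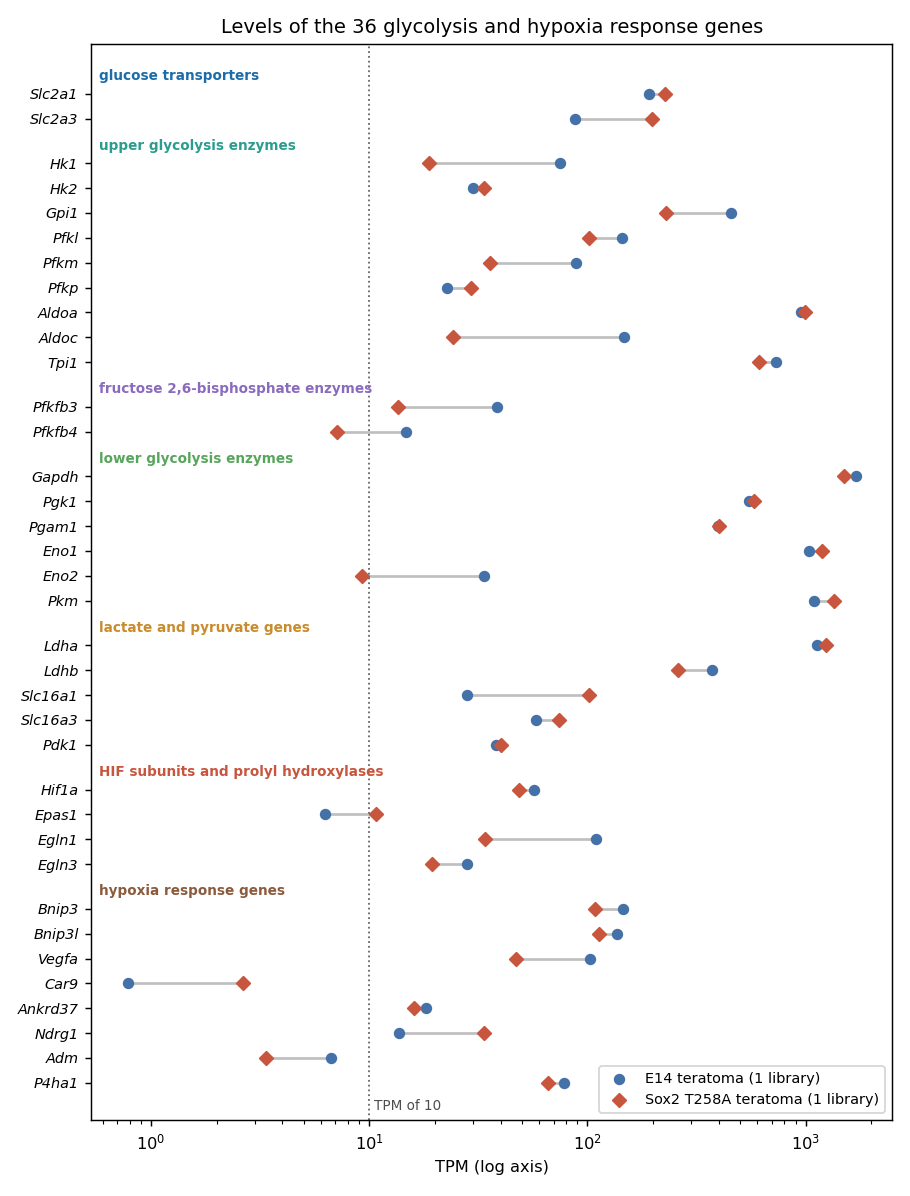
The TPM of each of the 36 members in the E14 and in the mutant (Sox2 T258A) teratoma on a log axis, grouped by role, with 1 point per library. Most pairs of points lie close together, while Hk1, Aldoc, Eno2 and Egln1 lie far to the left in the mutant teratoma and Slc16a1 far to the right.

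**Figure D2:**
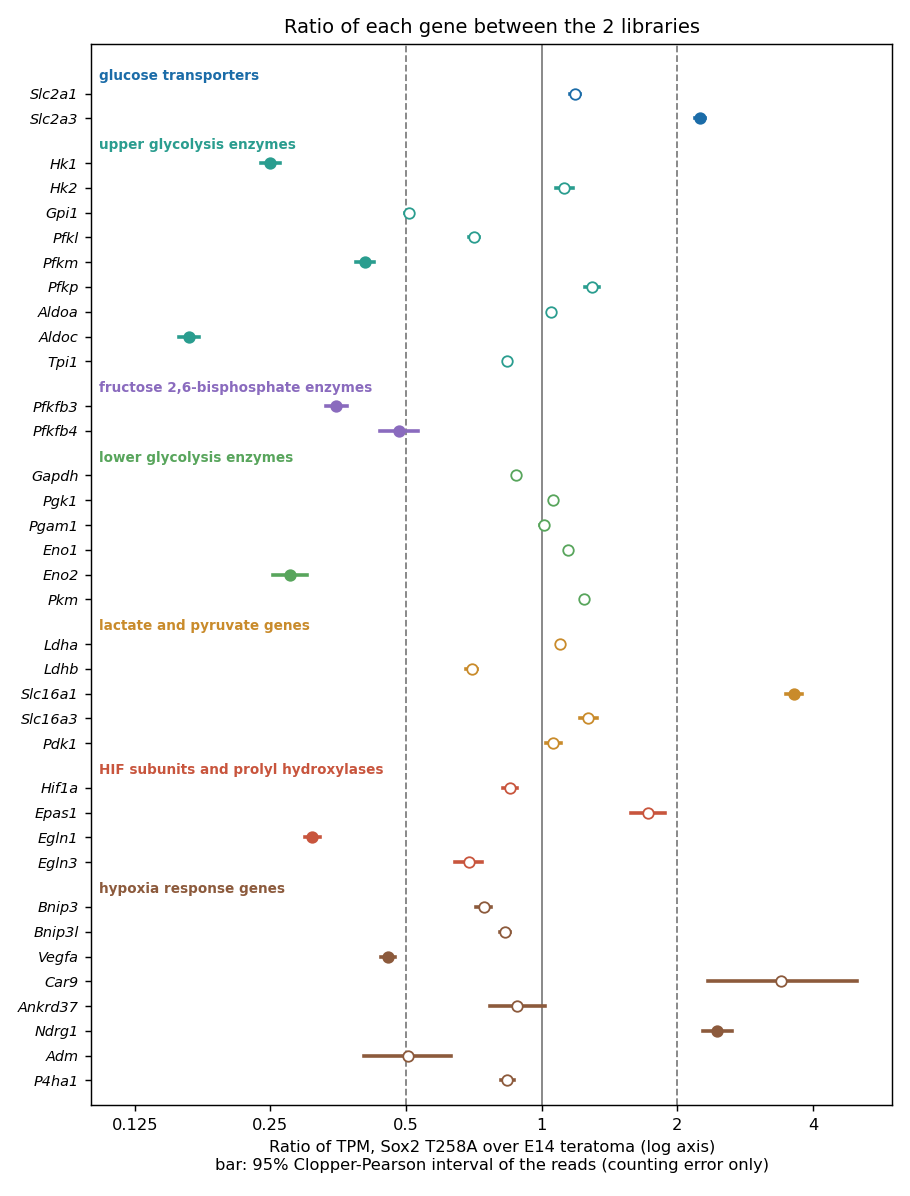
The TPM ratio of each member, mutant over E14, on a log2 axis, with the 95% Clopper-Pearson interval of the read counts as a bar. Of the 34 members that reached a TPM of 10, 3 lie above a ratio of 2 and 8 below 0.5.

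The glucose transporters were both higher in the mutant teratoma. Slc2a1 encodes GLUT1, the broadly expressed glucose carrier, and had a TPM of 192 in the E14 teratoma and 228 in the mutant teratoma, 1.19-fold higher (interval 1.16 to 1.21). Slc2a3, on chr6:122727809-122802363, encodes GLUT3, a high-affinity carrier known from neurons and early embryos. Its TPM was 87.8 in the E14 teratoma and 197 in the mutant teratoma, 2.24-fold higher (interval 2.19 to 2.30), from 9424 and 20982 reads. The 2 transporters together had a TPM of 280 and 425, so that the difference was mostly in Slc2a3. The transcript length implied by the reads and FPKM of Slc2a3 was 0.89 times as long in the mutant teratoma as in the E14 teratoma, a shift seen beyond 10% for only 1 other member, Pfkp.

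Among the enzymes of upper glycolysis, which take glucose to triose phosphates, 3 of 9 were more than 2-fold lower in the mutant teratoma (33.3%, against 18.7% of all genes) and none was more than 2-fold higher (against 10.8%). Hk1, on chr10:62268855-62379920, encodes the hexokinase that traps glucose in brain and most adult tissues, and its TPM was 75.1 in the E14 teratoma and 18.8 in the mutant teratoma, 4.01-fold lower (interval 3.82 to 4.21). Hk2, the hexokinase of muscle and growing cells, moved little, with a TPM of 30.0 and 33.6. Gpi1, which isomerises glucose 6-phosphate, had a TPM of 454 in the E14 teratoma and 230 in the mutant teratoma, 1.97-fold lower (interval 1.94 to 2.01). Phosphofructokinase makes the committed step of the pathway. Its muscle form Pfkm, on chr15:98092589-98132447, had a TPM of 88.3 in the E14 teratoma and 35.8 in the mutant teratoma, 2.47-fold lower. The liver form Pfkl had a TPM of 144 and 102, and the platelet form Pfkp had 22.6 and 29.3. Of the 3 forms only Pfkp had a ratio above 1.

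The aldolases, which split fructose 1,6-bisphosphate, went apart. Aldoa, the form of muscle and most other cells, had a TPM of 955 in the E14 teratoma and 998 in the mutant teratoma. Aldoc, on chr11:78323073-78327781, is the form of brain, strongest in astrocytes and cerebellar Purkinje cells. Its TPM was 147 in the E14 teratoma and 24.3 in the mutant teratoma, 6.05-fold lower (interval 5.75 to 6.37), from 9513 and 1756 reads. This was the largest fold of any member. Tpi1, which interconverts the triose phosphates, had a TPM of 731 and 613.

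The bifunctional enzymes Pfkfb3 and Pfkfb4 set the level of fructose 2,6-bisphosphate, the activator of phosphofructokinase, and both were lower in the mutant teratoma. Pfkfb3, the form with high kinase activity, on chr2:11471430-11554071, had a TPM of 38.5 in the E14 teratoma and 13.5 in the mutant teratoma, 2.86-fold lower (interval 2.70 to 3.02). Pfkfb4, on chr9:108988272-109032236, had a TPM of 14.8 and 7.13, 2.07-fold lower, and its interval of 1.88 to 2.28 included 2.

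Lower glycolysis takes triose phosphates to pyruvate. Of its 6 genes, 1 was more than 2-fold lower in the mutant teratoma (16.7%, against 18.7% of all genes). None was more than 2-fold higher (against 10.8%). Gapdh, the dehydrogenase often used as a reference gene, had a TPM of 1704 in the E14 teratoma and 1497 in the mutant teratoma. Pgk1, the first enzyme of the pathway to yield ATP, had a TPM of 551 and 584. Pgam1, the mutase, had a TPM of 396 and 400, and its interval spanned a ratio of 1. Pkm, the pyruvate kinase of most tissues, had a TPM of 1089 and 1353, 1.24-fold higher (interval 1.23 to 1.26). Of the enolases, Eno1, the form of most cells, had a TPM of 1040 and 1186, whereas Eno2, the neuronal form, had 33.5 and 9.26. Eno2, on chr6:124760053-124769673, was thus 3.62-fold lower in the mutant teratoma (interval 3.32 to 3.96). Its 2038 and 671 reads were few beside those of Eno1, which had 44437 and 56591.

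Of the 5 genes that handle pyruvate and lactate, 4 had a ratio above 1, beside 8819 of the 18558 genes that reached a TPM of 1. Ldha, whose subunit forms the lactate dehydrogenase of muscle and hypoxic cells, had a TPM of 1129 in the E14 teratoma and 1237 in the mutant teratoma. Ldhb, whose subunit forms the enzyme of heart, had 372 and 260, 1.43-fold lower (interval 1.39 to 1.47). Slc16a1, on chr3:104638664-104658462, encodes MCT1, which carries lactate and pyruvate in either direction. Its TPM was 28.1 in the E14 teratoma and 102 in the mutant teratoma, 3.62-fold higher (interval 3.48 to 3.77), from 3000 and 12137 reads. Slc16a3 encodes MCT4, the lactate exporter of glycolytic cells, and had a TPM of 58.4 and 73.9, 1.27-fold higher. Pdk1, a kinase that shuts pyruvate dehydrogenase and so keeps pyruvate out of the mitochondria, had a TPM of 38.1 and 40.4.

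The sum over the 17 enzymes from hexokinase to lactate dehydrogenase was 8961 TPM in the E14 teratoma and 8610 in the mutant teratoma, a ratio of 0.961. TPM was 2.33 times FPKM in the E14 teratoma and 2.03 times in the mutant teratoma. On FPKM the sum is therefore higher in the mutant teratoma, so that its direction turns with the scaling. These enzymes held 0.896% and 0.861% of all TPM, and 6 members stood among the 200 most abundant genes of each library. The summed TPM thus differed little, although single enzymes such as Aldoc, Hk1 and Eno2 differed by more than 3-fold.

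The HIF alpha subunits among the members lay on opposite sides of a ratio of 1. The prolyl hydroxylases among the members, Egln1 and Egln3, were both lower in the mutant teratoma. Hif1a, the broadly expressed subunit, had a TPM of 57.0 in the E14 teratoma and 48.5 in the mutant teratoma. Epas1, which encodes HIF-2 alpha and is known from endothelium and other vascularised tissues, had 6.25 and 10.8, 1.72-fold higher (interval 1.58 to 1.88). Egln1, on chr8:124908587-124949254, encodes PHD2, the main oxygen sensor among the prolyl hydroxylases. Its TPM was 109 in the E14 teratoma and 33.9 in the mutant teratoma, 3.23-fold lower (interval 3.10 to 3.36), from 9255 and 3206 reads. Egln3, which encodes PHD3 and is itself a HIF target, had a TPM of 28.1 and 19.4. HIF is controlled mainly through the stability of its alpha subunit, which RNA levels do not measure.

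The remaining hypoxia response genes did not move in one direction. Vegfa, the growth factor for blood vessels, on chr17:46016993-46032377, had a TPM of 103 in the E14 teratoma and 47.1 in the mutant teratoma, 2.19-fold lower (interval 2.11 to 2.28). On FPKM the ratio of Vegfa was 0.523, short of 2-fold. Ndrg1, a stress-responsive gene linked to myelin and to differentiation, on chr15:66929318-66969641, had a TPM of 13.7 and 33.7, 2.45-fold higher (interval 2.28 to 2.64). Bnip3, a mitophagy receptor of the outer mitochondrial membrane, had a TPM of 146 and 109, and its paralog Bnip3l had 137 and 113. P4ha1, a subunit of the hydroxylase that modifies proline in collagen, had a TPM of 78.4 and 65.7. Ankrd37, a small ankyrin repeat protein, had a TPM of 18.2 and 16.1 from 403 and 402 reads, with an interval that spanned a ratio of 1.

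Car9 and Adm did not reach a TPM of 10 in either library. Car9, the carbonic anhydrase at the surface of hypoxic cells, had 37 reads in the E14 teratoma and 140 in the mutant teratoma. This gave a TPM of 0.781 and 2.64, 3.39-fold higher, with a wide interval of 2.34 to 5.01. Adm, the vasodilator peptide adrenomedullin, had 225 and 127 reads and a TPM of 6.69 and 3.38, 1.98-fold lower (interval 1.59 to 2.48). Of the 12 members of the HIF system and its targets, 3 had a ratio above 1, and the median log2 ratio of the 12 was -0.26 on TPM and -0.06 on FPKM, where Ankrd37 also lay above 1, at 1.01. For the 24 members of glycolysis and its transporters, 13 had a ratio above 1 and the median was 0.04. This median was 0.24 on FPKM and -0.09 relative to genes of similar transcript length. Of all 18558 genes that reached a TPM of 1 in either library, 8819 had a TPM ratio above 1.

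**Figure D3:**
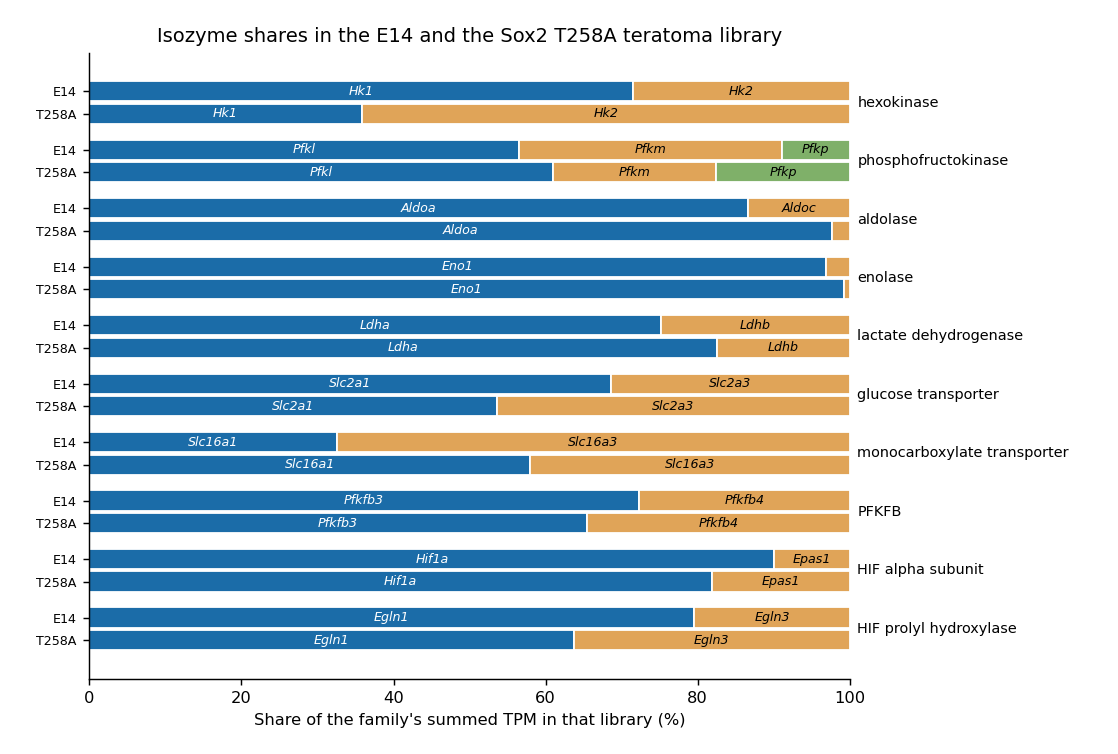
The share, in percent, that each isozyme or paralog held of the summed TPM of its family in the E14 and mutant teratoma, with 1 bar per library. The Hk1 share was 71.5% in the E14 teratoma and 35.8% in the mutant teratoma, and the Slc16a1 share 32.5% and 57.96%.

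The make-up of each step was then compared by the ratio of isozymes within a library, which does not depend on how the libraries are scaled. This ratio does depend on the transcript lengths used. Hk1 was 2.51 times as abundant as Hk2 in the E14 teratoma and 0.558 times in the mutant teratoma, a 4.49-fold difference (exact conditional interval 4.21 to 4.80), so that the order of the hexokinases was reversed. The summed hexokinase TPM was 105 and 52.4. Aldoa was 6.48 times as abundant as Aldoc in the E14 teratoma and 41.0 times in the mutant teratoma, a 6.33-fold difference (interval 6.01 to 6.68). The Aldoc share of aldolase was 13.4% and 2.38%. Eno1 was 31.0 times as abundant as Eno2 in the E14 teratoma and 128 times in the mutant teratoma, a 4.13-fold difference (interval 3.78 to 4.51). The summed enolase TPM, at 1073 and 1195, differed little since Eno2 held 3.12% of it in the E14 teratoma and 0.775% in the other.

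Phosphofructokinase kept its leading form. Pfkl held 56.4% of the family in the E14 teratoma and 61.0% in the mutant teratoma, while Pfkm held 34.7% and 21.5% and Pfkp 8.89% and 17.6%. On reads the Pfkl share was 55.2% and 50.9%, so that its direction turned, while Pfkm held 25.9% and 13.6% and Pfkp 18.9% and 35.5%. In TPM, Pfkm was 3.90 times as abundant as Pfkp in the E14 teratoma and 1.22 times in the mutant teratoma, a 3.19-fold difference (interval 3.01 to 3.38). The Ldha share of lactate dehydrogenase was 75.2% and 82.6%, and the summed TPM was 1502 and 1497. Thus Ldha and Ldhb moved apart by 1.57-fold (interval 1.52 to 1.61) around a level sum.

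Among the transporters, Slc16a1 was 0.482 times as abundant as Slc16a3 in the E14 teratoma and 1.38 times in the mutant teratoma, a 2.86-fold difference (interval 2.70 to 3.04) that put Slc16a1 ahead. Slc2a3 held 31.4% of the summed Slc2a1 and Slc2a3 TPM in the E14 teratoma and 46.4% in the mutant teratoma. Pfkfb3 was 2.61 times as abundant as Pfkfb4 in the E14 teratoma and 1.89 times in the mutant teratoma, a 1.38-fold difference (interval 1.23 to 1.54). Hif1a exceeded Epas1 by 9.12 times in the E14 teratoma and 4.51 times in the mutant teratoma, a 2.02-fold difference (interval 1.84 to 2.22). For the prolyl hydroxylases among the members, Egln1 was 3.89 times as abundant as Egln3 and then 1.75 times, a 2.22-fold difference (interval 2.05 to 2.41). Bnip3 and Bnip3l stayed near equal, at ratios of 1.07 and 0.957.

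**Figure D4:**
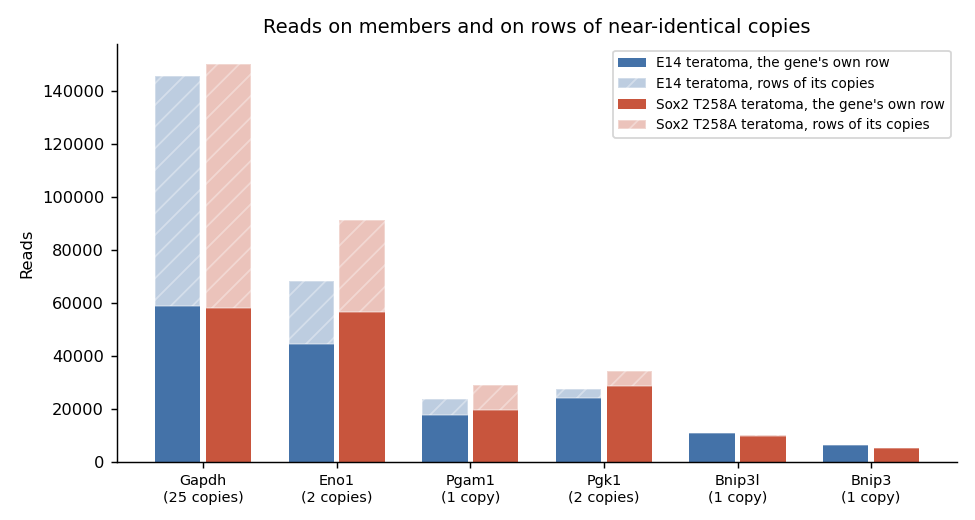
Reads on the row of each of 6 members (solid) and summed over the rows of its near-identical copies (hatched), stacked, in the E14 and mutant teratoma. The hatched part is larger than the solid part for Gapdh in both libraries and hardly visible for Bnip3 and Bnip3l.

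Several abundant enzymes have processed pseudogenes or other near-identical copies that could take part of their reads. Copies were genes at least 50% of whose transcript sequence lay in stretches of 50 bases identical to a member in the GENCODE annotation, and 6 members had such copies among the deposited rows. Gapdh had 25 of them, which held 86846 reads in the E14 teratoma and 92106 in the mutant teratoma, more than the 58738 and 57955 on Gapdh itself. With copies added, the TPM ratio of Gapdh was 0.925 in place of 0.879, and without them it was 1.01 on FPKM. Eno1 shared sequence with Eno1b and Gm4735, which held 34.9% of the combined reads in the E14 teratoma and 37.9% in the mutant teratoma, and its ratio was 1.20 with them and 1.14 without. Pgam1 shared sequence with Pgam1-ps2, which held 26.3% and 32.2%, and its ratio became 1.104 in place of 1.01. For Pgk1 the copies Gm5537 and Pgk1-rs7 held 11.6% and 16.8%. The counts of these 4 genes are therefore uncertain at the level of the differences between the libraries, while none of the 11 members past 2-fold had a copy by this rule.

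Genes that share the route with the members were counted by the same rule. Of 25 other glycolysis genes, 7 had a TPM of at least 10 in either library. Adpgk, an ADP-dependent glucokinase, and Eno3, the muscle enolase, were higher (28.6%, against 10.8% of all genes). Bpgm, which makes 2,3-bisphosphoglycerate, was lower (14.3%, against 18.7%). Adpgk had a TPM of 17.8 in the E14 teratoma and 35.6 in the mutant teratoma, and its interval of 1.86 to 2.16 included 2. Eno3 had a TPM of 14.02 in the E14 teratoma and 31.4 in the mutant teratoma, so that Eno2 and Eno3 changed places below Eno1. The reads of Eno3, 1015 and 1641, differed by less than 2-fold, so that its call rests on the length correction of TPM. Bpgm had a TPM of 179 and 64.3, 2.78-fold lower. Bsg, the chaperone that brings MCT1 and MCT4 to the membrane, had a TPM of 606 and 603 beside the 3.62-fold higher Slc16a1.

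Of 12 genes measured for the entry of pyruvate into mitochondria, 5 were lower (41.7%, against 18.7% of all genes) and none was higher (against 10.8%), and the summed TPM of the list was 943 in the E14 teratoma and 607 in the mutant teratoma. The lower genes were Pdha1, Pdk2, Pcx, Mpc1 and Pdp2, of which Mpc1 and Pdp2 are named after their values were seen. Pdha1, the catalytic subunit of pyruvate dehydrogenase, had a TPM of 305 and 138. Pdk2, a paralog of Pdk1, had 28.4 and 8.12, 3.50-fold lower, beside the 1.06-fold higher Pdk1. Pcx, pyruvate carboxylase, had 37.3 and 11.1. Pdhb and Dld, also among the most abundant genes of this list, stayed within 2-fold, with a TPM of 147 and 130 and of 90.8 and 107.

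In glycogen metabolism 4 of 8 genes were lower (50%, against 18.7% of all genes) and none was higher (against 10.8%). The median log2 ratio of the list was -0.38 on TPM and -0.18 on FPKM. The brain phosphorylase Pygb had a TPM of 143 and 44.4 and the synthase Gys1 32.3 and 12.6. Ugp2, also among the most abundant genes of the list, had 39.9 and 58.4, 1.47-fold higher. In the pentose phosphate pathway 1 of 7 was lower (14.3%, against 18.7% of all genes) and none was higher (against 10.8%). The lower gene was the lactonase Pgls, with a TPM of 309 in the E14 teratoma and 132 in the mutant teratoma. Of 4 gluconeogenesis genes only Fbp2, the muscle fructose bisphosphatase, passed the rule, with a TPM of 1.502 and 17.6. Fbp2 was higher, which is 25% of these genes against 10.8% of all genes.

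Of 12 other components of the HIF pathway, 2 were lower, which is 16.7% and near the 18.7% of all genes, and none was higher. Arnt2, a neural partner of the alpha subunits, had a TPM of 70.0 in the E14 teratoma and 13.1 in the mutant teratoma, 5.34-fold lower. Vhl, which encodes the subunit that recognises hydroxylated HIF, had 63.3 and 28.6, 2.21-fold lower, so that it and Egln1 were both lower. The most abundant genes of this list, Elob, Eloc and Rbx1, stayed within 2-fold. Elob had a TPM of 779 and 681, while Eloc had 73.95 and 129 and Rbx1 had 129 and 206, both higher. Of 31 other hypoxia response genes, 4 were higher, 3 were lower and 24 differed by less than 2-fold. The higher genes were 12.9% against 10.8% of all genes, and the lower ones 9.68% against 18.7%. Lox, which crosslinks collagen, had a TPM of 6.07 and 29.3, 4.83-fold higher. P4ha2 and Tmem45a were also among the higher genes, and Kdm4b, Gbe1 and Nfil3 were the lower ones, all 5 named after their values were seen. Abundant genes of this list, such as Mif at 1023 and 1137, Fam162a at 239 and 216 and Ddit4 at 149 and 102, stayed within 2-fold. The median log2 ratio of the list was -0.17 on TPM and 0.03 on FPKM, so that its sign turned with the scaling.

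**Figure D5:**
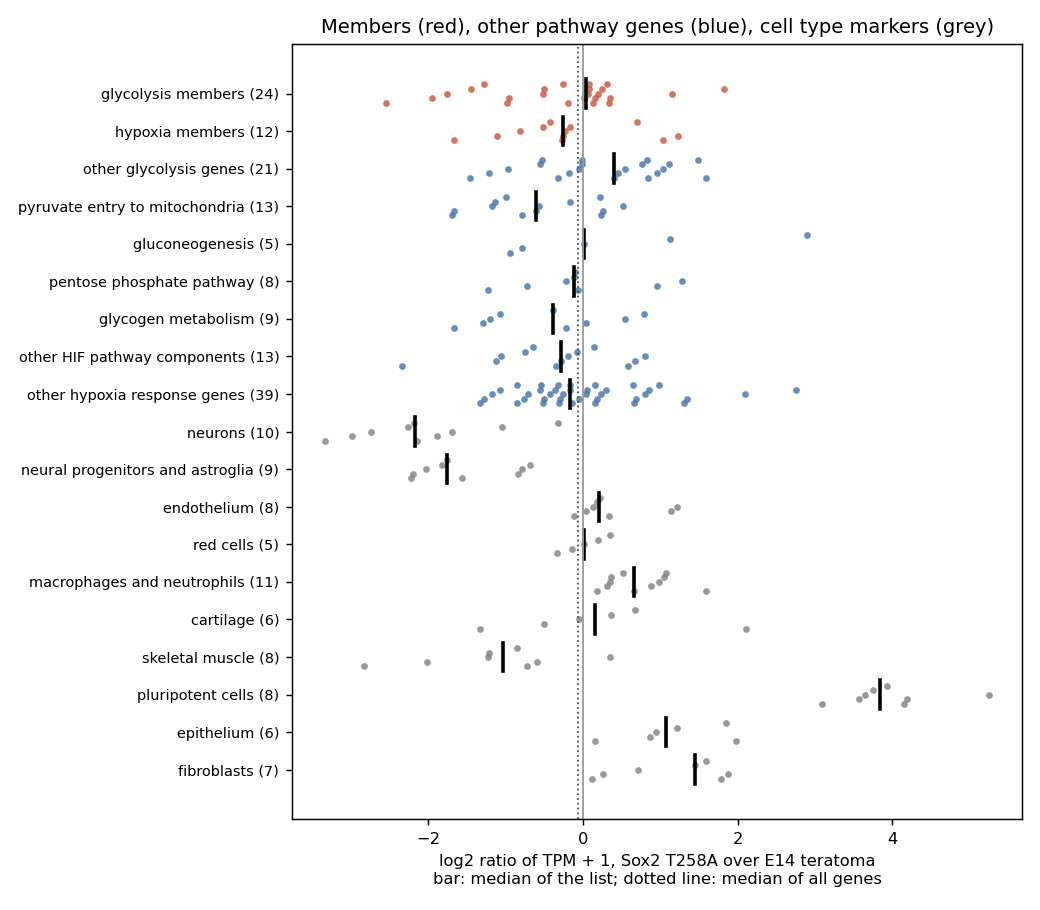
The median log2 TPM ratio, mutant over E14 with 1 added to each TPM, of the member groups, the other pathway lists and the cell type marker lists, with each gene as a point. The glycolysis members centre near 0, the neuron markers at -2.17 and the pluripotent cell markers at 3.84.

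The cell types of the 2 teratomas differed, and in such bulk samples fewer cells of a type and less RNA per cell cannot be told apart. Of 10 neuron markers, 9 were more than 2-fold lower in the mutant teratoma (90%, against 18.7% of all genes). Their summed TPM was 3090 in the E14 teratoma and 521 in the other. Of 8 measured markers of neural progenitors and astroglia, 5 were lower (62.5%, against 18.7%) and none higher (against 10.8%), with sums of 3144 and 959. None of these neural markers was at 0. Hk1, Aldoc and Eno2, the forms known from brain, were 4.01-fold, 6.05-fold and 3.62-fold lower beside them. The part of the neural cells in these differences was not tested. Slc2a3 is also known from neurons and was higher, against the direction of the neuron markers.

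All 8 markers of pluripotent cells were higher, against 10.8% of all genes. Their summed TPM was 78.4 and 1926, and Slc2a3 and Slc16a1 were higher beside these markers. Fibroblast markers had sums of 612 and 1481, with 4 of 7 higher (57.1%, against 10.8% of all genes). Epithelial markers had sums of 404 and 1113, with 3 of 6 higher (50%, against 10.8%). Skeletal muscle markers had sums of 349 and 185, with 4 of 7 lower (57.1%, against 18.7% of all genes). Of the genes named for muscle, Pfkm was 2.47-fold lower. Eno3 was 2.24-fold higher on TPM, though less than 2-fold on reads, and Fbp2 was 11.7-fold higher, against the direction of these markers. Hk2, Aldoa and Ldha, also described above as forms of muscle, were only 1.12-fold, 1.05-fold and 1.095-fold higher. Red cell markers had sums of 391 and 392, and endothelial markers 123 and 160, with Egfl7 higher (20%, against 10.8% of all genes). Macrophage and neutrophil markers had sums of 976 and 1660, with 2 of 8 higher (25%, against 10.8%). Vegfa was 2.19-fold lower beside the endothelial markers, of which Pecam1 had a TPM of 27.6 and 31.6. Cartilage markers had sums of 135 and 124. Of the 4 that reached a TPM of 10, Sox9 was lower (44.1 and 16.9), which is 25% against 18.7% of all genes. Col2a1 had 58.02 and 74.8. The other 4 stayed below a TPM of 10 and had more reads in the mutant teratoma, with Col10a1 at 11 and 326 reads, Comp at 11 and 49, Acan at 47 and 207, and Matn1 at 0 and 46. The part of each cell type in the values of the members was not tested.

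Whole chromosomes were shifted between the libraries as well. Relative to all genes, the median log2 ratio was -0.43 on chromosome 8, 0.41 on chromosome 15, 0.25 on chromosome 13 and 0.14 on the X chromosome. Egln1 lies on chromosome 8, and relative to that chromosome its ratio was 0.501, just short of 2-fold. Ndrg1 and Pfkm lie on chromosome 15, with ratios of 2.03 and 0.335 relative to it. Without the members on these 4 chromosomes, 2 of 28 members were higher and 6 lower, beside 10.8% and 18.7% of all genes on all chromosomes. The part of the chromosome shifts in the members' values was not tested.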

How the data were processed

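RNA-seq of 1 E14 and 1 E14-Sox2TA/WT teratoma library was analysed. The authors deposited whole-number read counts, FPKM (counts per transcript length and library size) and TPM (rescaled to a fixed sum) for mm10 genes. The submitters' processing notes name bcl2fastq 2.20.0, Trimmomatic, HISAT2 2.1.0 and StringTie 2.1.3b without their roles, and strand handling is not given in the sources used here. The 2 libraries held 50529171 and 49030281 reads.

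TPM ratios were computed for all genes, with 95% Clopper-Pearson intervals of the counts, and called by the study's thresholds applied to TPM (ratio above 2, TPM reaching 10 in either library). With 1 library per group there was no test. Isozyme ratios had exact conditional intervals. The members and lists were chosen with earlier results of these data known. All 36 members were named. Genes named from the other pathway lists came from the 3 of highest TPM or the 2 of largest change, not all of which were named. Those added after their values were seen are marked. Alternatives covered the pseudocount, the filter, the fold threshold, the scaling (FPKM, library totals, edgeR 4.0.16 TMM factors, DESeq2 1.42.0 size factors), chromosome, transcript length and copies. Scripts, tested on simulated data, ran in Python 3.11.15 with scipy 1.17.1 and R 4.3.3. Some genes are not reported here.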

Additional observations from a re-analysis of the deposited data

How the results depend on the processing

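With a fold threshold of 3, 1 member was higher (Slc16a1) and 4 were lower (Aldoc, Egln1, Eno2 and Hk1), beside 5.73% and 8.77% of all genes. Relative to the chromosome median, 5 members were lower, without Egln1, Pfkfb4 and Vegfa, and 4 were higher, with Epas1 added, beside 14.03% and 13.2% of all genes. Relative to genes of similar transcript length, 5 were higher, with Epas1 and Pfkp added, and 6 were lower, without Pfkfb4 and Vegfa, beside 13.2% and 12.9% of all genes. The median log2 ratio of the glycolysis members was 0.24 on FPKM and 0.25 on counts scaled by library total, against 0.04 on TPM. It turned to -0.09 both relative to genes of similar length and without members with copies. The cause was not tested. Of 28 alternative values for the counts of members, 24 stayed within 1.5 times the count given. Over 9 scalings 16 members kept a ratio above 1, 15 kept one below 1, and Gapdh, Hif1a, Bnip3l, Ankrd37 and P4ha1 lay on both sides. None of the 39 alternative values for isozyme pairs was reversed, but 14 lay outside the counting interval of the pair. For single members, 223 of 288 alternative values lay outside the counting interval. Leaving out the members on 4 chromosomes, and adding the TPM of copies, were chosen after seeing the data. No paired analysis was possible because each group had 1 library, and for the same reason no library could be left out. Counting error was small for most members, and widest for Car9.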
